A study of Mus musculus with 30 samples.

Results

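The genes of fatty acid synthesis were followed in aorta and kidney of mice lacking the EGF receptor (EGFR) in vascular smooth muscle (VSM) and of their wild-type (WT) controls, on a standard-fat (SFD) or high-fat diet (HFD). The set held 9 genes, taken by name and not by their values, of the 41128 genes listed for each tissue: Fasn, Acaca, Acacb, Acly, Scd1, Scd2, Elovl6, Srebf1 and Thrsp. Knockout (KO) mice were male mice (strain background C57Bl6J) with both Egfr alleles floxed (EGFRflox/flox) and a tamoxifen-inducible Cre driven by the promoter of SMMHC (also Myh11, the smooth muscle myosin heavy chain), so that Egfr was removed from smooth muscle and kept in other cells. WT mice carried the same Cre without floxed Egfr, and mice of both genotypes received tamoxifen. The diets started at 6 weeks of age, 7 days after tamoxifen, and lasted 18 weeks. Aorta was sequenced in 3 WT-SFD, 4 WT-HFD, 3 KO-SFD and 4 KO-HFD mice, and kidney in 4 mice of each group, with 1 library per mouse. The listed counts summed to between 6403699 and 13052870 per aortic library and to between 16354880 and 28331314 per renal library. All 9 genes passed the filter on low counts in both tissues. Aorta and kidney libraries were made and sequenced at different places and were analysed separately.

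Cells build fatty acids from citrate that leaves the mitochondria. ATP citrate lyase (Acly) splits it to acetyl-CoA, the acetyl-CoA carboxylases (Acaca in the cytosol, Acacb at the mitochondrial surface) make malonyl-CoA, and fatty acid synthase (Fasn) joins these units to palmitate. Elovl6 lengthens palmitate and the stearoyl-CoA desaturases (Scd1, Scd2) place a double bond in the product. Srebf1 encodes SREBP-1, the transcription factor that drives these genes in response to insulin, and Thrsp encodes Spot 14, a nuclear protein tied to lipogenesis. Liver, fat and lactating mammary gland are the classical sites of the pathway, and adipose tissue surrounds the aorta and fills the renal hilum and capsule.

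Promoters of the group are known for CCAAT boxes (bound by NF-Y) and GC boxes (bound by Sp1), which act together with SREBP. RefSeq (GRCm38.p6) windows starting 250 bases before the transcription start were found for 7 of the 9 genes, and Scd1 and Scd2 had none. The 150 bases upstream of Fasn and of Acly are shown as 2 examples in which such letters recur, for the synthase and for the enzyme that supplies it; they recur in windows of Srebf1 and Thrsp as well. Both are read 5′ to 3′ along the gene, with capitals marking CCAAT or its complement ATTGG in Fasn and GGGCGG or its complement CCGCCC in Acly.
Fasn, chr11:120824548-120824697, minus strand: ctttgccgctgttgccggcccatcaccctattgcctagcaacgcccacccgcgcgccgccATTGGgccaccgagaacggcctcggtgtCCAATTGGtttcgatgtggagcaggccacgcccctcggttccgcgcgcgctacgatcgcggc
Acly, chr11:100528001-100528150, minus strand: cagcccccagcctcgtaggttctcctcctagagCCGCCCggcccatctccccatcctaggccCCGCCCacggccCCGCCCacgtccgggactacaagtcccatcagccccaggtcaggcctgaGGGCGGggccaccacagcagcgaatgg
The Fasn stretch held 3 matches, the last 2 of which overlap, and the Acly stretch held 4. Searched on both strands over the 250 bases, CCAAT occurred in 5 of the 9 windows of these genes (Fasn, Acacb, Thrsp and 2 of the 3 windows of Srebf1) and in 33.8% of all 32851 RefSeq windows of that length. GGGCGG occurred in 3 of the 9 (Acly and 2 of Srebf1) and in 32.7% of all windows. Neither the E-box CACGTG (6.02% of all windows) nor the sterol element TCACNCCAC (1.05%) was found for any of the 7. These are matches of letters and describe no binding.

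Egfr, the targeted gene, was read over its whole length, so that exons outside the floxed part also counted. Normalised read counts are given in FPM, fragments scaled to the same TMM-corrected library total in every library. In aortae on SFD Egfr stood at 46.7, 39.5 and 54.3 FPM in WT and at 26.8, 35.5 and 28.0 FPM in KO mice. On HFD it stood at 65.1, 57.0, 51.2 and 57.0 FPM in WT and at 27.5, 40.6, 39.7 and 33.4 FPM in KO mice. On each diet the KO values all lay under the WT values, although the change was not called by edgeR (log2 fold change -0.64 ± 0.17, SE, adjusted p = 0.531 on SFD and -0.70 ± 0.14, adjusted p = 0.130 on HFD). In kidney, where smooth muscle is a minor cell type, WT values of 36.9 to 58.4 FPM and KO values of 40.5 to 60.8 FPM overlapped. All 7 smooth muscle markers had reads in the aorta, where their summed level ranged from 11569 to 20600 FPM, with Acta2 and Myh11 the most abundant. Proximal tubule markers summed to between 8764 and 15506 FPM in the kidney, with Slc34a1 the most abundant.

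Some SFD libraries stood apart, and the diet effects below are therefore also given without them. In 4 aortae, WT-SFD replicates 1 and 2 and KO-SFD replicates 1 and 2, the 12 adipocyte markers summed to 3313, 2452, 2010 and 694 FPM, against 50.3 to 191 FPM in the other 10 aortae. Fabp4, a fatty acid carrier of adipocytes, was the most abundant of them. The hormone gene Adipoq had 195, 148, 111 and 47.8 FPM in these 4 aortae and 1.37 to 14.8 FPM in the rest. Markers of brown fat summed to between 267 and 1212 FPM in the 4 aortae and to between 12.0 and 65.1 FPM in the others; Ucp1, the uncoupling protein of brown adipocytes, and Cidea, a lipid droplet protein, were the most abundant. No adipocyte marker was at 0 in these 4 libraries, and 1 was in 1 of the others. Smooth muscle markers summed to 11569, 14371, 12457 and 18290 FPM in the 4 aortae, in the same order, and to between 17083 and 20600 FPM in the other 10. The 9 fatty acid synthesis genes together took 2.67%, 2.09%, 1.75% and 0.598% of the listed counts in the 4 aortae and at most 0.129% in any other. The listed counts hold none for chromosomes 9, X and Y, distal chromosome 8 and the mitochondrial genome, so these are not shares of all reads. The labels state that adjacent fat and connective tissue had been removed from the aortae, and in whole tissue fewer cells of a type and less RNA per cell cannot be told apart.

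In the kidney WT-SFD replicates 2 and 4 and KO-SFD replicates 1 and 4 lay highest in adipocyte markers, at 282, 254, 397 and 728 FPM, against 82.3 to 187 FPM in the other 12. Fabp4 again was the most abundant. The markers did not move alike with diet. Cfd had 6.51 to 238 FPM on SFD and 0 to 12.4 FPM on HFD, and Lep 0 to 1.57 FPM and 1.74 to 17.2 FPM. Adipoq had 1.36 to 31.7 FPM on SFD and 1.06 to 9.81 FPM on HFD. Brown fat markers reached 51.0 to 142 FPM in these 4 kidneys and 28.7 to 82.9 FPM in the rest, so the ranges overlapped. Cox7a1, not Ucp1, was the most abundant of them here. Renal Ucp1 had 0 to 31.7 FPM on SFD and 0.101 to 28.0 FPM on HFD. The 9 genes summed to between 1049 and 2570 FPM in the 4 kidneys and to between 624 and 950 FPM in the other 12. In both tissues the libraries richest in adipocyte markers thus also had the highest summed FPM of the 9 genes. They were chosen as the SFD libraries above every HFD library in the mean of these markers. No HFD library could therefore be among them.

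**Figure D1:**
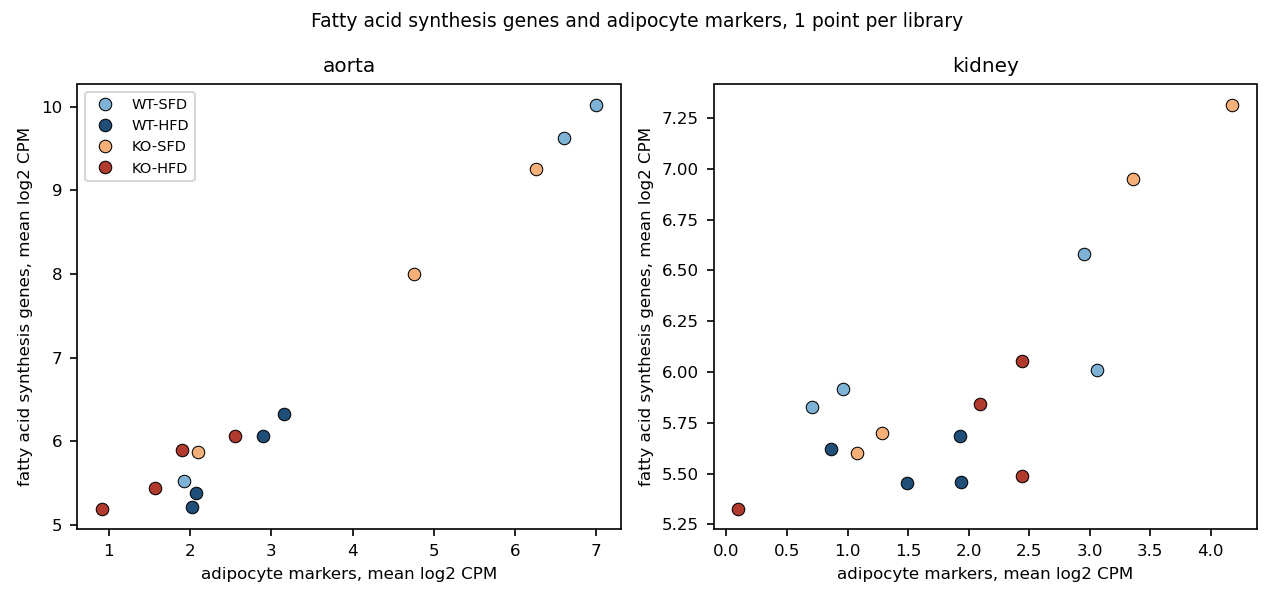
Mean log2 CPM (counts scaled to the library total) of the 9 fatty acid synthesis genes (vertical axis) against that of the 12 adipocyte markers (horizontal axis), 1 point per library, in aorta (left) and kidney (right), coloured by group. In the aorta 4 SFD libraries lie above the other 10 on both axes, and those 10 reach 6.32 at most on the vertical axis; in the kidney the 4 SFD libraries highest in adipocyte markers lie between 6.01 and 7.32, and the other 12 reach 6.05.

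The first comparison asked how 18 weeks of HFD changed the pathway in the aorta. Averaged over both genotypes, 7 of the 9 genes fell on HFD (edgeR quasi-likelihood test, adjusted p under 0.05) and none rose, where 3.58% of the 14796 genes tested fell and 3.95% changed in either direction. The enzymes Fasn, Scd1, Elovl6 and the lipogenic factor Thrsp fell by 21.1-fold to 23.6-fold, and Acly, Acaca and Acacb by 6.52-fold to 8.16-fold. Scd2 and Srebf1 were not called. The median log2 fold change of the 9 genes was -3.03, against -0.0048 for all genes tested. Without the 4 SFD aortae rich in adipocyte markers, edgeR called none of the 9 genes, 2 had an unadjusted p under 0.05 (Scd2 and Srebf1, both higher on HFD), and the median was 0.09. Of all 15861 genes tested in that fit 0% were called and 6.01% had an unadjusted p under 0.05, so the 0 calls among the 9 equal the background. It left 1 aorta in each SFD group. With the mean of the adipocyte markers as a covariate in all 14 aortae, edgeR called none either, 4 had an unadjusted p under 0.05 (Fasn, Acaca, Scd1 and Thrsp, lower on HFD), and the median was -0.10. Of all genes 0.00676% (1 gene) were called there and 5.9% had an unadjusted p under 0.05, so these 0 calls too lie at the background. Leaving out a single aorta, WT-SFD replicate 1, WT-SFD replicate 2 or KO-SFD replicate 1, also left 0 calls.

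At the head of the pathway, Acly had 1165, 943 and 55.6 FPM in WT-SFD aortae and 57.4, 56.2, 89.6 and 69.3 FPM in WT-HFD aortae. In KO mice it had 607, 255 and 73.5 FPM on SFD and 58.7, 78.0, 76.5 and 56.6 FPM on HFD. The third mouse of each SFD group lay at the level of the HFD mice, so the diets overlapped in either genotype. Over both genotypes the log2 fold change was -2.81 ± 0.50 (adjusted p = 0.0168), and it was 0.09 without the 4 aortae. Acly lies at chr11:100476353-100528000 on the minus strand (GRCm38, as for all positions here).

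The carboxylases, whose product is both the building block of the chain and a brake on fatty acid oxidation, also overlapped between the diets. Acaca (chr11:84129672-84401651) ranged from 53.1 to 999.9 FPM in the 6 SFD aortae (median 372) and from 38.7 to 64.8 FPM in the 8 HFD aortae (median 47.1). For Acacb (chr5:114146535-114250761) the SFD values ran from 30.5 to 656 FPM (median 226) and the HFD values from 21.8 to 62.3 FPM (median 33.1). SFD values spread over 18.8-fold and 21.5-fold, HFD values over 1.68-fold and 2.86-fold. The log2 fold changes over both genotypes were -3.03 ± 0.51 for Acaca (adjusted p = 0.0168) and -2.71 ± 0.54 for Acacb (adjusted p = 0.0169). Without the 4 aortae they were -0.16 and 0.22.

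Fasn (chr11:120805846-120824547), whose upstream sequence is shown above, was read at 10294, 7062 and 174 FPM in WT-SFD aortae, against 110, 101, 285 and 229 FPM in WT-HFD aortae. KO aortae had 5425, 1580 and 218 FPM on SFD and 104, 268, 200.5 and 96.7 FPM on HFD. WT-SFD replicate 3 and KO-SFD replicate 3 fell among the HFD values, while the other 4 SFD aortae lay far above all of them. The log2 fold change was -5.01 ± 1.07 in WT (adjusted p = 0.0674), -3.84 ± 1.02 in KO (adjusted p at or above 0.526, as for each of the 9 genes in KO) and -4.43 ± 0.74 over both (adjusted p = 0.0168). Without the 4 aortae these values were 0.063, -0.38 and -0.16, and with the covariate -0.83, 0.00085 and -0.42.

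Elovl6 (chr3:129532355-129638495), the elongase of palmitate, had 404, 367 and 4.04 FPM in WT-SFD and 5.81, 2.61, 12.1 and 7.54 FPM in WT-HFD aortae. In KO-SFD aortae it had 267, 69.8 and 7.43 FPM, and in KO-HFD aortae 7.34, 9.67, 8.48 and 4.38 FPM. It thus spanned 99.9-fold among the 6 SFD aortae, the widest range of the 9 genes, and 4.63-fold among the 8 HFD aortae. Over both genotypes the log2 fold change was -4.56 ± 0.79 (adjusted p = 0.0168) and 0.41 without the 4 aortae.

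The desaturases, which lie on chromosome 19 at chr19:44394455-44407879 (Scd1) and chr19:44293674-44306864 (Scd2), differed from each other. Scd1 had 15928, 12089 and 326 FPM in WT-SFD aortae and 185, 160, 594 and 416 FPM in WT-HFD aortae. KO aortae had 10528, 2656 and 432.5 FPM on SFD and 170, 399, 409 and 157 FPM on HFD. In KO mice, and not in WT mice, every HFD value of Scd1 lay below every SFD value. It was the 1 gene of the 9 with that pattern in KO aortae, a pattern seen in 3.59% of all genes tested, and none of the 9 had it in WT, where 4.53% did. The log2 fold change was -4.80 ± 1.07 in WT (adjusted p = 0.0674), -4.00 ± 1.04 in KO and -4.40 ± 0.74 over both (adjusted p = 0.0168). Without the 4 aortae these values were 0.058, -0.61 and -0.27.

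Scd2, the desaturase isoform of brain and many other tissues, had 362, 262 and 108 FPM in WT-SFD, 139, 134, 145 and 144.5 FPM in WT-HFD, 185, 239 and 112 FPM in KO-SFD and 144, 150, 169 and 144 FPM in KO-HFD aortae. The 2 SFD aortae poor in adipocyte markers here lay below all 8 HFD aortae. Its log2 fold change over both genotypes, -0.51 ± 0.21, was not called (adjusted p = 0.190), and it was 0.41 without the 4 aortae. Reads from the Scd paralogues can match more than 1 of them, and how the authors treated such reads is not given in the sources used here.

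Among the regulators, Srebf1 (chr11:60199089-60222581) had 163, 98.5 and 47.1 FPM in WT-SFD and 58.1, 60.1, 74.9 and 69.8 FPM in WT-HFD aortae. KO-SFD aortae had 139, 81.2 and 61.2 FPM and KO-HFD aortae 66.0, 66.9, 63.1 and 69.6 FPM. Srebf1 spanned 3.46-fold among SFD and 1.29-fold among HFD aortae, close to Scd2 with 3.34-fold and 1.26-fold. Its log2 fold change of -0.57 ± 0.22 was not called (adjusted p = 0.169), and it was 0.30 without the 4 aortae. Thrsp (chr7:97412938-97417730) followed the enzymes, with 7.22 to 479 FPM in SFD aortae (median 206.0) and 2.87 to 17.5 FPM in HFD aortae (median 7.57). Its log2 fold change was -4.54 ± 0.76 (adjusted p = 0.0168), and -0.04 without the 4 aortae.

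**Figure D2:**
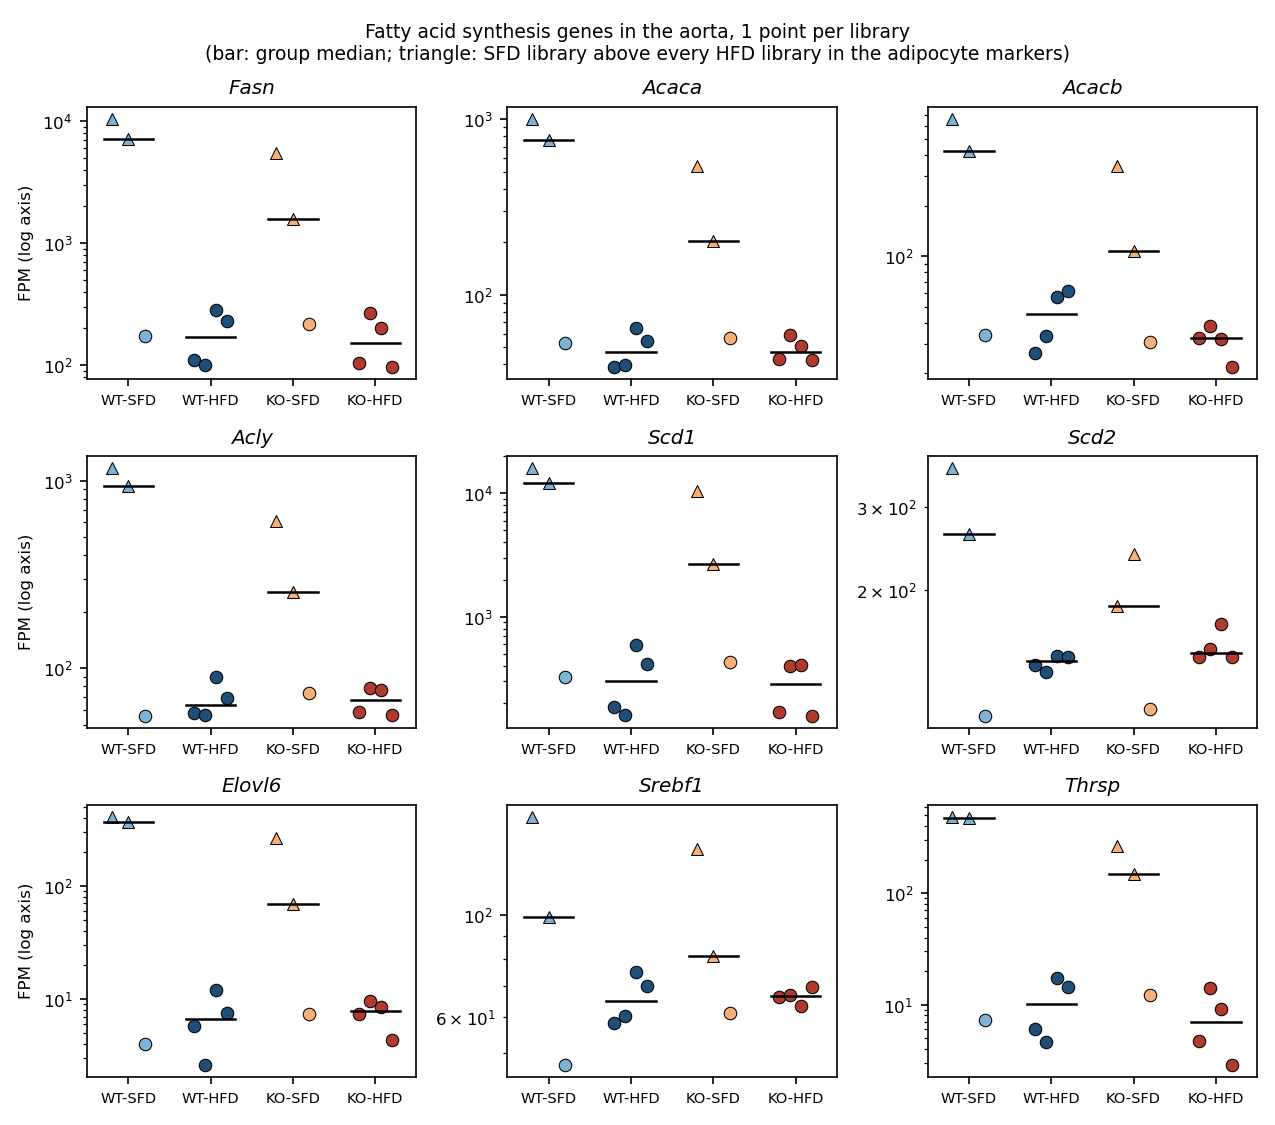
Normalised read counts (FPM, log axis) of the 9 genes in the aorta, 1 point per library, by group, with a bar at the group median; triangles mark the 4 SFD aortae above every HFD aorta in adipocyte markers. In each gene the triangles lie highest, and the remaining SFD aorta of each group lies near the HFD aortae (Fasn at 174 FPM in WT and 218 FPM in KO).

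Within a single genotype no gene of the 9 was called in the aorta. In WT 8 had an unadjusted p under 0.05, the log2 fold changes ran from -5.20 to -0.65, and DESeq2 called 7 of the 9, among 666 of all genes. In KO 7 had an unadjusted p under 0.05, the log2 fold changes ran from -4.16 to -0.23, and DESeq2 called none of the 9 and 8 of all genes. Of all genes edgeR called 0% in WT aortae and 0% in KO aortae, so the 0 calls among the 9 genes equal the background. The 8 and 7 genes with an unadjusted p under 0.05 are not set against the share of all genes at that limit.

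In the kidney the same question gave smaller changes. Over both genotypes 4 of the 9 genes fell on HFD (Fasn, Acaca, Acacb and Scd1) and none rose, where 1.62% of the 15034 genes tested fell and 4.62% changed in either direction. Scd1 fell 2.72-fold, Fasn 2.43-fold, Acaca 1.85-fold and Acacb 1.52-fold. Acly, Scd2, Elovl6, Srebf1 and Thrsp were not called. The median log2 fold change of the 9 genes was -0.61, against -0.0053 for all genes. With the adipocyte marker mean as a covariate Acaca (log2 fold change -0.62, adjusted p = 0.0380) and Scd1 (-1.09, adjusted p = 0.00219) were still called, where 1.42% of all genes were called lower and 4% in either direction. There 5 of the 9 had an unadjusted p under 0.05, as had 17.3% of all genes, and the median was -0.56. Without the 4 SFD kidneys rich in adipocyte markers edgeR called none of the 9, where 0.939% of all 15439 genes tested were called lower and 2.75% in either direction. There 3 of the 9 (Acaca, Acacb and Scd1, lower on HFD) had an unadjusted p under 0.05, as had 15.8% of all genes, and the median was 0.015.

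Renal Fasn stood at 127, 299, 155 and 174 FPM in WT-SFD and at 95.5, 83.2, 112.5 and 111 FPM in WT-HFD mice. KO kidneys had 451, 114, 104 and 768 FPM on SFD and 155, 112, 101 and 86.7 FPM on HFD. In WT every HFD value lay below every SFD value, while in KO 2 of the SFD kidneys lay within the HFD range. The log2 fold change was -0.91 ± 0.48 in WT (adjusted p = 0.704), -1.66 ± 0.49 in KO (adjusted p = 0.0905) and -1.28 ± 0.34 over both (adjusted p = 0.0405). Without the 4 kidneys these values were -0.50, 0.067 and -0.22. The call over both genotypes was not kept with the covariate (-0.75, adjusted p = 0.0974) or in 12 of the 16 fits without 1 kidney.

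Acaca showed a like distribution at a lower level, with 15.1 to 60.7 FPM in the 8 SFD kidneys (median 21.2) and 12.6 to 18.5 FPM in the 8 HFD kidneys (median 14.7). It was called in KO (log2 fold change -1.26 ± 0.32, adjusted p = 0.0477) and over both genotypes (-0.89 ± 0.23, adjusted p = 0.0324). Neither call was kept without the 4 kidneys, where the values were -0.34 in KO (adjusted p = 0.355) and -0.31 over both (adjusted p = 0.285), and with the covariate the KO value was -0.86 (adjusted p = 0.0616). Of the 16 fits without 1 kidney, 12 did not keep the call in KO and 10 that over both. Acacb, the isoform at the mitochondrial surface, had 45.5 to 86.1 FPM on SFD (median 61.1) and 28.4 to 54.1 FPM on HFD (median 38.6). Its ranges overlapped too, and the log2 fold change over both genotypes was -0.61 ± 0.15 (adjusted p = 0.0271). Of the 9 genes it moved least between the fits, with -0.56 under the covariate (adjusted p = 0.0520) and -0.49 without the 4 kidneys, and 8 of the 16 fits without 1 kidney did not keep its call.

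Scd1 had 321, 344, 205 and 343 FPM in WT-SFD and 160, 139, 149 and 118 FPM in WT-HFD kidneys. KO kidneys had 716, 177, 235 and 938 FPM on SFD and 202, 164, 163.5 and 70.2 FPM on HFD. Every WT-HFD kidney lay below every WT-SFD kidney, and KO-SFD replicate 2 alone overlapped the KO-HFD kidneys. Scd1 and Fasn were the 2 genes of the 9 without overlap in WT kidneys, where 1.99% of all genes had that pattern, and none had it in KO kidneys, where 3.85% did. The log2 fold change was -1.10 ± 0.42 in WT (adjusted p = 0.438), -1.79 ± 0.43 in KO (adjusted p = 0.0345) and -1.44 ± 0.30 over both (adjusted p = 0.00861). Without the 4 kidneys it was -0.90 in WT, -0.46 in KO (adjusted p = 0.443) and -0.68 over both (adjusted p = 0.146). With the covariate Scd1 was called by edgeR in KO (-1.25, adjusted p = 0.0197) and not in WT (-0.94, adjusted p = 0.127). All 16 fits without 1 kidney kept the call over both genotypes, and 5 did not keep that in KO.

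Acly, Scd2, Elovl6 and Thrsp were not called in the kidney. Acly, which had 159 to 346 FPM on SFD (median 216) and 186 to 232 FPM on HFD (median 208), had a log2 fold change of -0.13 ± 0.12 (adjusted p = 0.602). For Scd2 it was -0.19 ± 0.16 (adjusted p = 0.568) and for Elovl6 -0.10 ± 0.20 (adjusted p = 0.847). Thrsp was low and uneven, with 3.96, 31.2, 3.91 and 9.91 FPM in WT-SFD and 46.8, 9.27, 2.56 and 102 FPM in KO-SFD kidneys, against 2.39 to 11.3 FPM on HFD. Its log2 fold change of -2.10 ± 0.63, the most negative of the 9, missed the limit (adjusted p = 0.0673), and it was 0.07 without the 4 kidneys.

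Srebf1 had renal fold changes of opposite sign in the 2 genotypes, as did Scd2 (-0.42 in WT and 0.034 in KO) and Elovl6 (0.21 in WT and -0.40 in KO), none of them called. Srebf1 had 58.4, 134, 108 and 112 FPM in WT-SFD and 61.3, 73.0, 79.6 and 69.5 FPM in WT-HFD kidneys. In KO it had 69.5, 53.2, 55.7 and 93.8 FPM on SFD and 79.7, 80.5, 76.5 and 73.3 FPM on HFD. In WT 3 of the 4 SFD kidneys lay above all HFD kidneys, whereas in KO 3 of the 4 SFD kidneys lay below them. Its log2 fold change was -0.54 ± 0.20 in WT (adjusted p = 0.413) and 0.19 ± 0.20 in KO (adjusted p = 0.683), and -0.24 and 0.51 without the 4 kidneys. The difference of these values, 0.73 ± 0.29, had an unadjusted p of 0.0221 and did not pass the adjustment over all genes (adjusted p = 1.00).

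**Figure D3:**
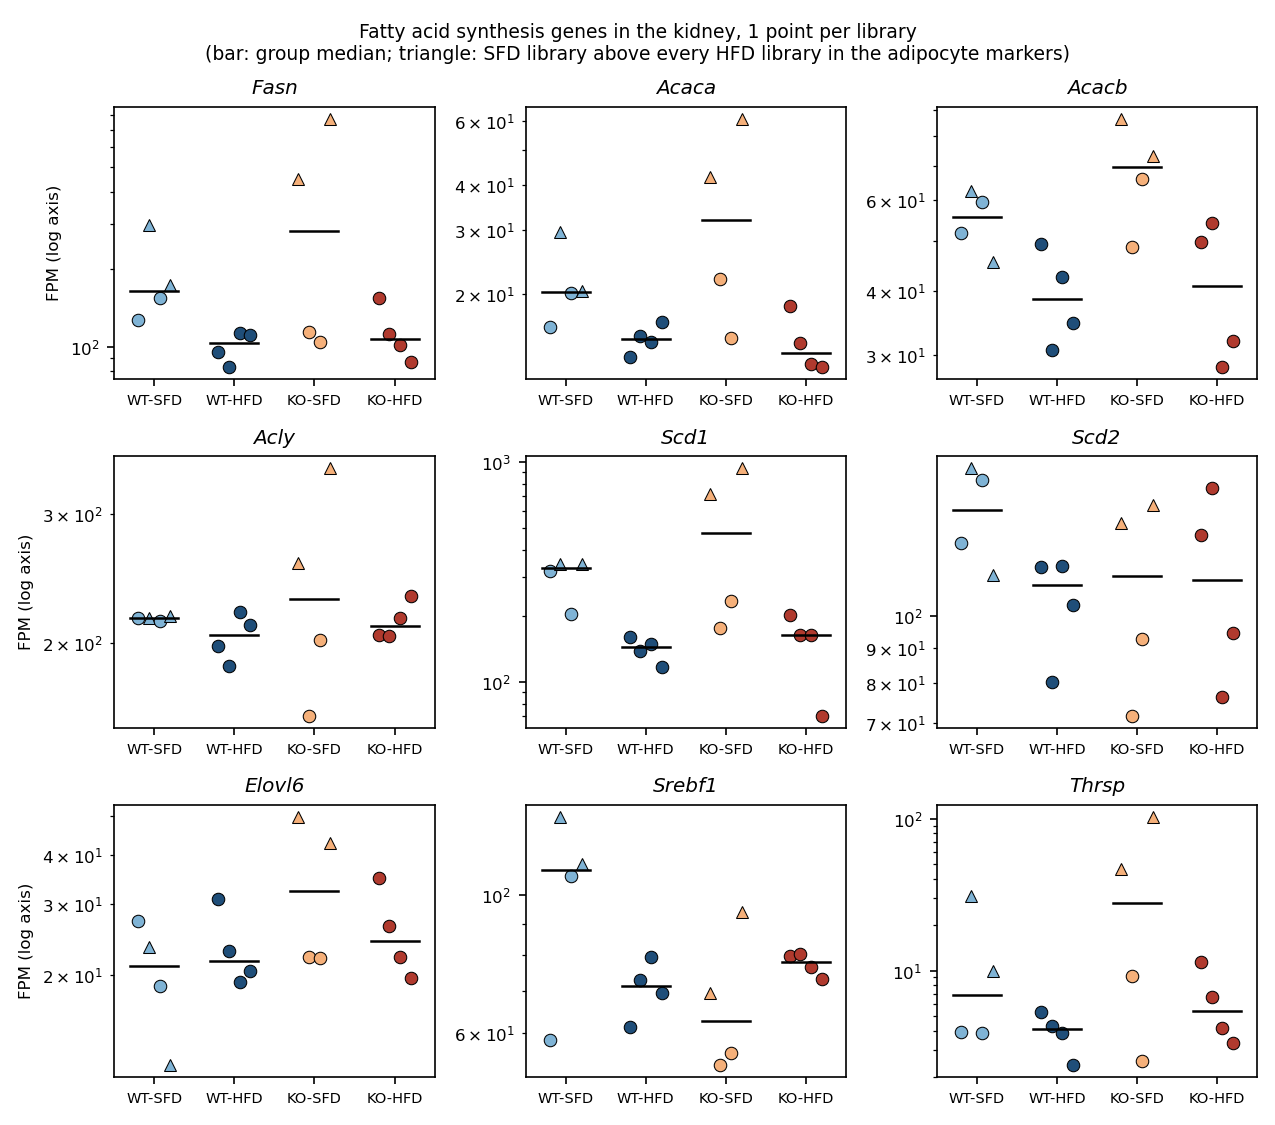
Normalised read counts (FPM, log axis) of the 9 genes in the kidney, 1 point per library, by group, with a bar at the group median; triangles mark the 4 SFD kidneys above every HFD kidney in adipocyte markers. The highest Fasn, Scd1 and Thrsp values belong to KO-SFD replicate 4 (768, 938 and 102 FPM), and Acly differs little between the groups.

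Within WT kidneys none of the 9 genes was called by edgeR, where 0.964% of all genes were. There 3 (Acacb, Scd1 and Srebf1) had an unadjusted p under 0.05, and DESeq2 called none. In KO kidneys Acaca and Scd1 were called lower, where 0.825% of all genes were called lower and 2.39% in either direction, and 5 of the 9 had an unadjusted p under 0.05. DESeq2 called 4 there, Fasn and Acacb besides Acaca and Scd1, among 695 of all genes against 360 by edgeR. The 3 and 5 genes with an unadjusted p under 0.05 are not set against the share of all genes at that limit. That a gene was called in KO and not in WT does not show that the diet acted differently, since no difference between the genotypes passed the test.

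**Figure D4:**
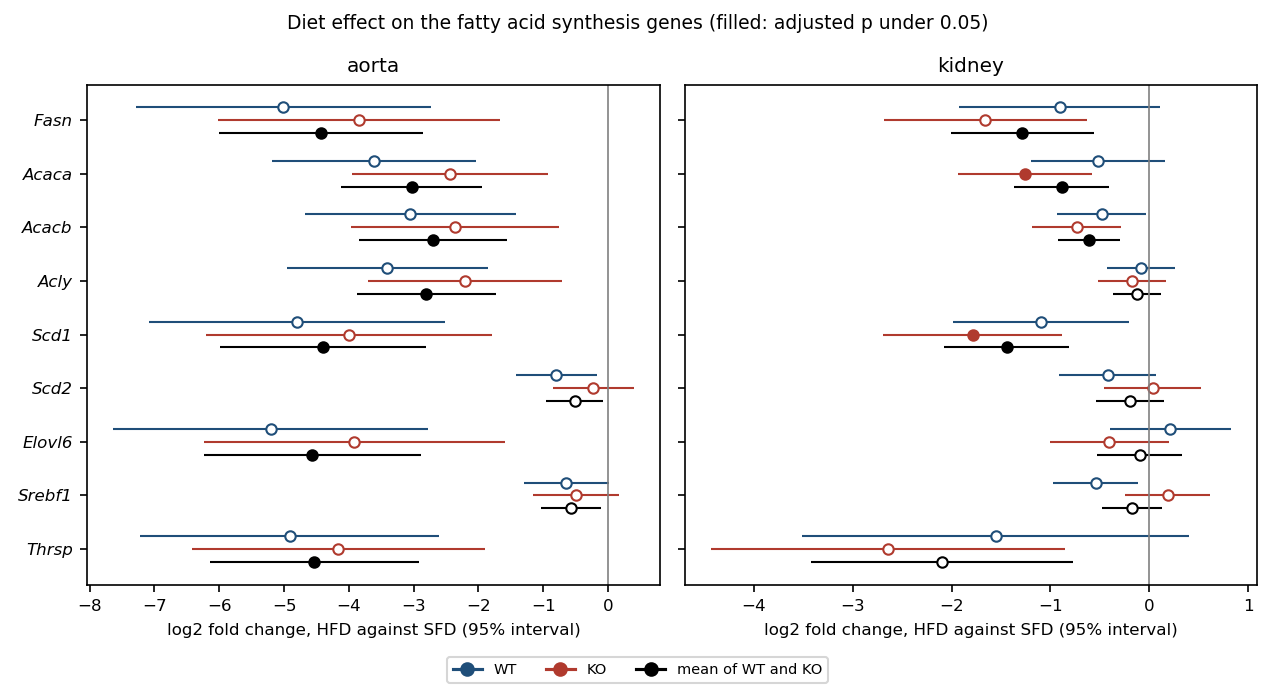
Log2 fold change of HFD against SFD (horizontal axis) with its 95% interval for each of the 9 genes in aorta (left) and kidney (right), in WT, in KO and averaged over both; filled points have an adjusted p under 0.05. In the aorta 7 genes are filled in the average and none within a genotype; in the kidney 4 are filled in the average and 2 (Acaca and Scd1) in KO.

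The second question was whether loss of EGFR from VSM altered the pathway or its response to HFD. None of the 9 genes was called in KO against WT aortae on either diet, where 0.0811% of all genes were called on SFD and 0.0811% on HFD, and none had an unadjusted p under 0.05 or was called by DESeq2. On SFD the log2 differences ran from -1.28 (Fasn, 95% interval -3.49 to 0.93) to -0.13, with adjusted p of 0.795 to 0.956. All 12 adipocyte markers were also lower in KO-SFD than in WT-SFD aortae, with a median of -1.11 and none called. The Fasn difference on SFD was -0.0099 with the covariate and 0.33 without the 4 aortae. On HFD the 9 differences ran from -0.52 to 0.11. The diet effect in KO minus that in WT was 1.17 for Fasn (95% interval -1.73 to 4.06) and lay between 0.15 and 1.28 for the 9 genes, of which none had an unadjusted p under 0.05 or a call by DESeq2, where 0% of all genes were called. For Fasn it was 0.83 with the covariate and -0.44 without the 4 aortae. Its intervals from all aortae include differences of several fold between the genotypes. For Scd2 and Srebf1 they were narrower, from -1.12 to 0.22 and from -0.84 to 0.57 on SFD and from -0.47 to 0.69 and from -0.60 to 0.63 on HFD. With the adipocyte marker covariate edgeR called 2 of the 9 genes on HFD, both higher in KO, where 0.196% of all genes were called. These were Fasn (0.82, adjusted p = 0.0192), which had -0.11 without the covariate, and Elovl6 (1.15, adjusted p = 0.0358). All 12 adipocyte markers were lower in KO-HFD than in WT-HFD aortae without the covariate, with a median of -0.85 and none called. None of the 9 genes was called on SFD with the covariate, or on HFD without the 4 SFD aortae.

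In kidneys on SFD no gene of the 9 was called between the genotypes by edgeR or DESeq2, where edgeR called 0.0133% of all genes. By edgeR 4 had an unadjusted p under 0.05, a count not set against all genes. Elovl6 was higher in KO by 0.76 ± 0.29 on the log2 scale (unadjusted p = 0.0178, adjusted p = 0.514). Its values were 27.2, 23.4, 18.7 and 11.9 FPM in WT-SFD and 49.6, 22.2, 22.0 and 42.7 FPM in KO-SFD kidneys. The groups overlapped, the 2 highest values were those of the KO-SFD kidneys rich in adipocyte markers, and the difference was -0.055 without the 4 kidneys. Srebf1 was lower by 0.60 on that scale (log2 fold change -0.60 ± 0.20, unadjusted p = 0.00947, adjusted p = 0.472). Its difference was -0.62 without the 4 kidneys and -0.70 with the covariate, and it was called in neither fit. Fasn differed by 0.93 ± 0.48, and by -0.38 without the 4 kidneys rich in adipocyte markers. On HFD the log2 differences ran from -0.04 to 0.68, with no unadjusted p under 0.05, no call by DESeq2 and 0% of all genes called. The diet effect in KO minus that in WT was called for none of the 9 by either tool, with 0% of all genes called by edgeR, and Srebf1 alone had an unadjusted p under 0.05.

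**Figure D5:**
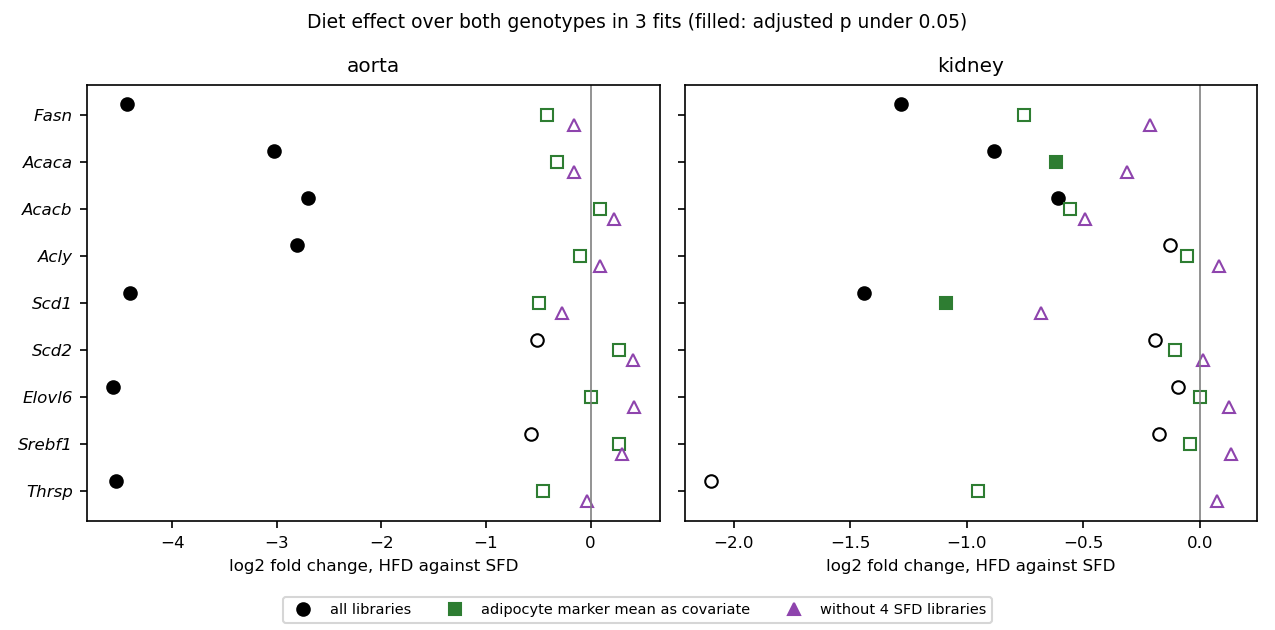
Log2 fold change of HFD against SFD averaged over both genotypes (horizontal axis) for the 9 genes in aorta (left) and kidney (right) from all libraries (circles), with the adipocyte marker mean as a covariate (squares) and without the 4 SFD libraries richest in adipocyte markers (triangles); filled symbols have an adjusted p under 0.05. In the aorta the Fasn value moves from -4.43 to -0.42 and -0.16; in the kidney Scd1 moves from -1.44 to -1.09 and -0.68.

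The genes around the pathway were read in the same way. In the aorta all 4 tested genes of precursor and NADPH supply fell on HFD over both genotypes, with a median log2 fold change of -2.10. They included Slc25a1, the mitochondrial citrate carrier (-2.61, adjusted p = 0.0168), and Acss2, which activates acetate (-2.76, adjusted p = 0.0168). Of 11 tested genes of elongation and desaturation 6 fell (median -0.63), among them Scd3 (-3.76, adjusted p = 0.0168), while Fads2, a desaturase of polyunsaturated fatty acids, was not called (0.07, adjusted p = 0.821). All 6 genes of triacylglycerol assembly fell (median -1.92), including Gpam, which starts glycerolipid synthesis (-1.81, adjusted p = 0.0214), and Dgat2, which finishes it (-3.87, adjusted p = 0.0168).

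The 12 tested regulators had a median of -0.02 in the aorta. Mlxipl, which encodes the carbohydrate-responsive factor ChREBP, fell (-2.18, adjusted p = 0.0193), as did Insig1, which holds SREBP in the endoplasmic reticulum and is itself an SREBP target (-1.56, adjusted p = 0.0269). Srebf2, the sterol-responsive relative of Srebf1, rose by 0.31 on the log2 scale (adjusted p = 0.0371). Of the 14 fits without 1 aorta, 12 did not keep the call of Insig1, 11 that of Srebf2, 7 that of Gpam and 5 that of Mlxipl. Nr1h3, which encodes the oxysterol receptor LXRα, was not called (-0.99, adjusted p = 0.0767). Alongside, 11 of the 12 adipocyte markers (median -3.60) and 5 of the 6 brown fat markers (median -3.54) fell, and none of the 7 smooth muscle markers was called by edgeR (median 0.30, 4 with an unadjusted p under 0.05, 1 called higher by DESeq2). With the covariate no gene of any of these lists was called, where 1 of all genes was. That covariate is the mean of the 12 adipocyte markers, and the 4 aortae were chosen by that mean. For these markers neither the covariate fit nor the fit without those aortae is therefore a test.

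In the kidney few of the neighbouring genes were called. Of the precursor list 1 of 4 fell, Pgd, an NADPH-forming enzyme of the pentose phosphate pathway (log2 fold change -0.43 ± 0.11, adjusted p = 0.0415), and the list median was -0.05. Pgd was not called with the covariate (-0.37, adjusted p = 0.0822) or without the 4 kidneys (-0.29, adjusted p = 0.102), nor in 8 of the 16 fits without 1 kidney. Among the genes not called were Slc25a1 (-0.10, adjusted p = 0.648), Mlxipl (-0.02, adjusted p = 0.957), Nr1h3 (0.08, adjusted p = 0.713), Srebf2 (-0.09, adjusted p = 0.492) and Fads2 (-0.13, adjusted p = 0.432). Acss2 differed by less than 0.01 (adjusted p = 1.00). None of the 6 genes of triacylglycerol assembly was called by edgeR or DESeq2 (2 with an unadjusted p under 0.05, median -0.0024), with Gpam at -0.13 (adjusted p = 0.708) and Dgat2 at 0.16 (adjusted p = 0.536).

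No overlap between the diets was seen for Fads1, the delta-5 desaturase of polyunsaturated fatty acid synthesis and the 1 gene of 10 tested in the elongation and desaturation list that was called in the kidney. It had 92.8, 101, 117 and 90.4 FPM in WT-SFD and 58.0, 62.9, 78.2 and 71.7 FPM in WT-HFD kidneys, and 90.1, 80.7, 83.8 and 88.8 FPM in KO-SFD and 61.7, 69.6, 62.7 and 64.4 FPM in KO-HFD kidneys. Every HFD kidney lay below every SFD kidney of its genotype, a pattern seen in 1.99% of all genes in WT and 3.85% in KO kidneys. The log2 fold change was -0.57 in WT (adjusted p = 0.00819), -0.41 in KO (adjusted p = 0.0433) and -0.49 ± 0.07 over both (adjusted p = 0.00046). Over both genotypes Fads1 was -0.50 with the covariate (adjusted p = 0.0011) and -0.49 without the 4 kidneys (adjusted p = 0.0106). Within WT it was called with the covariate (adjusted p = 0.0129) and not without the 4 kidneys (-0.64, adjusted p = 0.0695). Within KO it was called in neither fit (-0.42, adjusted p = 0.0595, and -0.35, adjusted p = 0.182), nor in 10 of the 16 fits without 1 kidney.

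Insig1 was the 1 regulator of 12 that fell in the kidney. It had 62.1, 89.0, 92.9 and 89.1 FPM in WT-SFD and 37.9, 52.4, 60.2 and 55.9 FPM in WT-HFD kidneys, without overlap. KO kidneys had 54.3, 72.4, 53.4 and 89.3 FPM on SFD and 52.9, 44.4, 51.0 and 46.0 FPM on HFD, also without overlap. The shares of all genes with that pattern are those given for Fads1. Over both genotypes the log2 fold change was -0.58 ± 0.12 (adjusted p = 0.00997). It was -0.53 with the covariate (adjusted p = 0.0247) and -0.49 without the 4 kidneys (adjusted p = 0.0872). Of 11 adipocyte markers tested in the kidney, 9 were lower on HFD and 2 higher, with a median log2 fold change of -1.02. By edgeR 5 had an unadjusted p under 0.05, and 1 was called higher and 1 lower. Lep, the leptin gene, rose by 3.97 on the log2 scale (adjusted p = 0.00128). Cfd, which encodes adipsin, fell by 3.86 on that scale (adjusted p = 0.00843), while Adipoq was not called (-1.02, adjusted p = 0.367). These genes belong to the marker mean that chose the 4 kidneys and served as the covariate.

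Levels of different genes were compared as FPM per kilobase of exon, since longer genes collect more reads. Over the 14 aortae the median was highest for Scd1 (84.3 FPM per kilobase), followed by Scd2 (26.5), Fasn (20.4), Acly (14.2), Srebf1 (12.1), Thrsp (6.03), Acacb (3.74), Acaca (3.26) and Elovl6 (1.25). Over the 16 kidneys the order was Acly (40.8 FPM per kilobase), Scd1 (38.7), Scd2 (21.6), Srebf1 (13.3), Fasn (10.3), Acacb (5.14), Elovl6 (3.51), Thrsp (2.22) and Acaca (0.964). Within the 3 WT-SFD aortae the order differed, with Scd1 (2471), Fasn (645), Thrsp (216), Acly (179) and Elovl6 (57.1) ahead of Scd2 (48.0). In SFD kidneys Scd1 stood ahead of Acly, at 67.9 against 41.0 FPM per kilobase in WT and 97.2 against 43.5 in KO, and in KO-SFD kidneys Fasn (25.8) was the third and Thrsp (12.8) the fifth. In both orders over all libraries each gene's range over libraries overlapped that of its neighbours. Within each aortic group, however, the lowest Scd1 value lay above the highest Scd2 value, at 66.6 against 66.2 FPM per kilobase in WT-SFD, 32.7 against 26.6 in WT-HFD, 88.4 against 43.7 in KO-SFD and 32.02 against 30.98 in KO-HFD aortae.

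Ratios within a library do not depend on its depth. The per-length ratio of Scd1 to Scd2 was 49.2, 51.5 and 3.36 in WT-SFD aortae, 63.7, 12.4 and 4.31 in KO-SFD aortae, 1.33 to 4.57 in WT-HFD and 1.21 to 2.97 in KO-HFD aortae. The aortae rich in adipocyte markers thus had far more Scd1 per Scd2 than the rest. In the kidney this ratio ran from 0.829 to 7.24, with the highest values, 5.87 and 7.24, in KO-SFD replicates 1 and 4. The ratio of Acaca to Acacb stayed between 0.496 and 1.10 in all aortae and between 0.129 and 0.468 in all kidneys, which were sequenced elsewhere.

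The genes whose levels followed the group most closely were sought over all tested genes by the correlation of log2 CPM with the mean of the 9 standardised profiles. In the aorta these were Tkt (Pearson r = 0.996 over 14 libraries), Slc36a2 (0.993), Pygl (0.992), Lipe (0.992) and Gpd2 (0.991), with Spearman's rho of 0.886 to 0.982 for these 5. In the kidney they were Ppp1r3b (r = 0.930 over 16 libraries), Pnpla3 (0.907), Adig (0.892), Sh2b2 (0.861) and Prkar2b (0.859). Lipe and Adig are also on the adipocyte marker list. By Spearman's rho the aortic list opened with Slc36a2 and the renal list with Wscd2. In the aorta Slc36a2 was the 1 gene among the first 5 by both measures, while the renal lists shared none.

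Both tissues were sequenced in 3 mice. The WT-SFD mouse with 10294 FPM of Fasn and 15928 FPM of Scd1 in its aorta had 127 FPM and 321 FPM in its kidney. The KO-SFD mouse had 5425 FPM of Fasn and 10528 FPM of Scd1 in the aorta and 104 FPM and 235 FPM in the kidney. The KO-HFD mouse had 200.5 FPM of Fasn and 409 FPM of Scd1 in the aorta and 112 FPM and 164 FPM in the kidney. Neither of the SFD mice, whose aortae were among the 4 rich in adipocyte markers, was among the 4 such kidneys.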

How the data were processed

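RNA was sequenced from aorta (rRNA-depleted libraries) and kidney. The authors trimmed reads with cutadapt, aligned them with TopHat to mouse genome mm10 and counted them per gene with featureCounts, and the deposited values are raw counts. Strand setting and treatment of multiply matching reads are not given in the sources used here. Genes of chromosomes 9, X and Y and of the mitochondrial genome were at 0 in every library, as were those of distal chromosome 8, so Elovl5, Me1, Scap and others of the pathway are not analysed here.

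Each tissue was fitted in edgeR 4.0.16 (R 4.3.3) with TMM factors, the default low-count filter by group, 1 coefficient per group and the quasi-likelihood test. Benjamini-Hochberg adjustment ran over all 14796 (aorta) or 15034 (kidney) genes tested, with calls at an adjusted p under 0.05. The average diet effect weights both genotypes equally. Libraries were grouped by genotype and diet as labelled, and p-values measure the spread between mice. The procedure was tested on simulated counts drawn independently for each gene. That test held no libraries in which many genes move together, as they did in the 4 SFD aortae. Alternatives were DESeq2 1.42.0, legacy quasi-likelihood, library totals, no filter, protein-coding genes, only the compared groups, a limit of 0.001, each library left out, the adipocyte marker mean as covariate and, added after the data were seen, the fit without 4 SFD libraries per tissue. The genes, lists and tests were chosen with earlier results of these data known. Named were the 9 genes, 10 pathway genes always, up to 3 called pathway genes per direction with the smallest p, the 5 most alike genes per tissue, and Egfr.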

Additional observations from a re-analysis of the deposited data

Results flagged for a closer look

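Of 54 groups of 4 libraries examined (chance alone marks about 1 in 20), 1 held a library far from the others. Renal Scd1 in WT-SFD replicate 3 was 205 FPM, against 321 to 344 FPM in the other 3 WT-SFD kidneys, so that the gap took 0.839 of the group's range. The groups of 3 aortae were too small for this check. No difference in diet effect between the genotypes passed the test for any of the 9 genes.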

How the results depend on the processing

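The aortic result rested on few libraries: of the 9 genes, 7 were called lower on HFD over both genotypes, 0 at a limit of 0.001, 0 with the adipocyte marker covariate and 0 without the 4 SFD aortae. Leaving out 1 aorta gave 0 to 9 calls, with 0 without WT-SFD replicate 1, WT-SFD replicate 2 or KO-SFD replicate 1 and 9 without WT-SFD replicate 3. In WT aortae 0 calls became 7 with library totals, without the filter or with DESeq2, and 0 to 9 without 1 aorta (9 without WT-SFD replicate 3, 7 without KO-SFD replicate 1 or 3). In KO against WT aortae on HFD the covariate gave 2 calls (Fasn and Elovl6, higher in KO) in place of 0. Of the renal genes, 4 were called over both genotypes, 2 with the covariate, 0 at a limit of 0.001 and 0 without the 4 SFD kidneys, and leaving out 1 kidney gave 1 to 5 (1 without WT-SFD replicate 2, WT-HFD replicate 2 or 4, KO-SFD replicate 1 or 4 or KO-HFD replicate 3 or 4, 2 without WT-SFD replicate 3, WT-HFD replicate 1 or 3 or KO-HFD replicate 2). In KO kidneys 2 calls became 4 with DESeq2, 1 with library totals or the covariate, 0 at a limit of 0.001, within the compared groups only or without the 4 kidneys, and 0 to 4 without 1 kidney (0 without KO-SFD replicate 1 or 4 or KO-HFD replicate 2, 3 or 4, and 4 without KO-SFD replicate 3). In WT kidneys 0 calls became 1 (Scd1) within the compared groups only, and 0 to 1 without 1 kidney (1 without WT-SFD replicate 1). Legacy quasi-likelihood and protein-coding genes alone changed no count of calls among the 9 genes by over 1.5 times. Among all genes, the calls behind the background shares moved too. Over both genotypes edgeR called 584 in the aorta (DESeq2 1007, covariate 1, without the 4 aortae 0, limit of 0.001 0) and 695 in the kidney (DESeq2 1101, without the 4 kidneys 424, limit of 0.001 153). In WT aortae 0 became 312 with library totals, 347 without the filter and 666 with DESeq2, and in KO kidneys 360 became 695 with DESeq2, 235 within the compared groups and 50 at a limit of 0.001. WT kidneys had 145 (DESeq2 263, without the 4 kidneys 39, limit of 0.001 26). Between genotypes the aortic counts of 12 on each diet ran from 2 to 22 on SFD and from 3 to 40 on HFD (3 on each with protein-coding genes alone), and no renal count passed 26. Within a tissue no paired analysis was run, because each library came from a different mouse.

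Signs turned mainly in the fits that account for adipocyte markers, and the turned values are given here. With the covariate the aortic values over both genotypes were 0.094 for Acacb, 0.27 for Scd2, 0.0054 for Elovl6, 0.27 for Srebf1, -0.0017 for Fads2, 0.043 for Mlxipl, 0.15 for Nr1h3, 0.18 for Insig1 and 0.0086 for Dgat2. Fasn in KO aortae was 0.00085. In the kidney Elovl6 was 0.0012 and Acss2 -0.0090. Without the 4 SFD aortae the values over both genotypes were 0.22 for Acacb, 0.087 for Acly, 0.41 for Scd2, 0.41 for Elovl6, 0.30 for Srebf1, 0.039 for Slc25a1, 0.16 for Scd3, 0.24 for Mlxipl, 0.21 for Nr1h3, 0.35 for Insig1, 0.074 for Gpam and 0.25 for Dgat2. In that fit WT aortae had 0.063 for Fasn and 0.058 for Scd1, KO against WT on SFD was 0.33 for Fasn and the difference in diet effect -0.44. Without the 4 SFD kidneys the values over both genotypes were 0.080 for Acly, 0.015 for Scd2, 0.13 for Elovl6, 0.13 for Srebf1 and 0.073 for Thrsp, Fasn in KO was 0.067, and KO against WT on SFD was -0.38 for Fasn and -0.055 for Elovl6. Renal Acss2, at less than 0.01 in size, was -0.0061 without the filter, -0.00071 with protein-coding genes and -0.0054 with DESeq2. Without 1 kidney it ran from -0.046 to 0.049, Elovl6 from -0.19 to 0.023 and Mlxipl from -0.074 to 0.084.

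The 4 libraries per tissue were chosen among SFD libraries only, by markers that move with the 9 genes. Leaving them out therefore lowers the SFD level of these genes by design. It kept 1 mouse in each aortic SFD group, assumed to vary like the others. The part of the adipocytes in the diet effect was not tested beyond these fits. Scaling by library totals shifted the median gene by 0.11 in WT and -0.11 in KO aortae, 0.29 between genotypes on SFD and -0.22 in the difference of diet effects, and by at most 0.07 in size in the other aortic comparisons.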

Other observations

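Marker lists of other cell types held few calls for diet over both genotypes. In the aorta Kdr, an endothelial receptor, fell by 2.75 on the log2 scale (edgeR, adjusted p = 0.0168) and was the 1 of 6 endothelium markers called, against 2 by DESeq2. Kdr stood at 60.7, 39.2, 37.6 and 13.1 FPM in the 4 SFD aortae rich in adipocyte markers and at 1.47 to 6.88 FPM in the other 10, and it was not called without the 4 aortae. Neither edgeR nor DESeq2 called a gene there among 5 fibroblast, 5 leucocyte, 7 Schwann cell, 2 skeletal muscle, 2 proximal tubule and 1 adrenal cortex marker, of which 2 Schwann cell, 1 skeletal muscle and 1 proximal tubule marker had an unadjusted p under 0.05. In the kidney Slc5a2, the glucose carrier SGLT2, rose by 1.37 on the log2 scale (edgeR, adjusted p = 1.87e-05) and was the 1 of 5 proximal tubule markers called. Slc12a3, the salt carrier of the distal convoluted tubule, rose by 0.40 (edgeR, adjusted p = 0.0310) and was the 1 of 6 other nephron markers called by edgeR, of which 5 had an unadjusted p under 0.05. No renal call by edgeR was made among 6 brown fat, 7 smooth muscle, 6 endothelium, 5 fibroblast, 5 leucocyte, 7 Schwann cell, 1 skeletal muscle and 1 adrenal cortex marker, of which 1 smooth muscle, 1 leucocyte, 1 Schwann cell and 1 adrenal cortex marker had an unadjusted p under 0.05. DESeq2 called 1 of the leucocyte markers higher. Kdr, Slc5a2 and Slc12a3 were singled out after their values were seen.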
